A study of Homo sapiens with 12 samples.

Results

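The guanylate-binding protein genes GBP1 to GBP7 were examined in 624Mel cells, an established human melanoma line, under an siRNA against MITF, under IFNγ and under both. The members were taken by their symbols, and 7 of the 40173 Ensembl gene IDs in the table carried them. The 4 conditions were siCTRL (a non-targeting control siRNA without IFNγ), siCTRL+IFNγ, siMITF (a single siRNA against MITF, without IFNγ) and siMITF+IFNγ, with 3 libraries each. IFNγ was given at 5 ng/mL for 24 h, starting 24 h after transfection, and all cells of all conditions had been transfected with an siRNA. Only one cell line in monoculture was sequenced, and MITF was lowered by one siRNA sequence. MITF, the target and the master regulator of the melanocyte lineage, had 187, 229 and 217 TPM in siCTRL, 158, 246 and 243 TPM in siCTRL+IFNγ, 36.0, 49.7 and 41.7 TPM in siMITF and 37.5, 55.1 and 51.3 TPM in siMITF+IFNγ libraries.

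Guanylate-binding proteins are large GTPases of the dynamin superfamily. Interferons, and IFNγ above all, switch on their genes in most cell types, through transcription factors such as IRF1 that bind GAS and ISRE elements near the start sites. The proteins assemble on the membranes of intracellular bacteria and of vacuoles that hold parasites, where they help to expose the pathogen and to start inflammatory cell death through CASP4. Several members carry a lipid anchor: GBP1 is farnesylated, while GBP2 and GBP5 are geranylgeranylated.

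Values are TPM, a transcript abundance scaled to one total per library, which are corrected for transcript length and so allow levels to be compared between genes. Sequencing depth is not kept in TPM, so no counting error could be given. Differences were tested on log2 of TPM plus 1 with limma over the 12773 gene IDs that reached a mean of 2 TPM in a condition. "Counted as changed" means a limma adjusted p under 0.05, a log2 difference of 1 or more in size, and a mean level of 2 TPM or more on either side of the comparison. In bulk RNA, more responding cells and more RNA per responding cell cannot be told apart. The listed values summed to 975336 to 982632 TPM per library, with 11850 to 12377 gene IDs at 2 TPM or more. Mitochondrial genes took 7.42% to 16.9% of the TPM. All 6 melanocytic marker genes (MITF, SOX10, MLANA, PMEL, TYR and DCT) were above 2 TPM in every condition, with a summed level of 5418 to 7240 TPM in siCTRL and siCTRL+IFNγ libraries and 1411 to 1798 TPM in siMITF and siMITF+IFNγ libraries. Of 6 leukocyte markers, CD3E was listed at 0 in all 12 libraries, and the summed level ran from 1.96 to 2.46 TPM in siCTRL+IFNγ, 3.07 to 3.20 TPM in siCTRL, 3.93 to 4.35 TPM in siMITF+IFNγ and 4.62 to 5.65 TPM in siMITF libraries, most of it LYZ. The 4 fibroblast and 3 endothelial markers summed to at most 8.64 and 0.800 TPM in any library.

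All 7 genes lie together on chromosome 1 (GRCh38, positions from GENCODE version 44). From the lower coordinate upwards they are GBP3 (89006679 to 89022894), GBP1 (89051882 to 89065360), GBP2 (89106132 to 89150456), GBP7 (89131742 to 89176009), GBP4 (89181144 to 89198942), GBP5 (89256189 to 89272860) and GBP6 (89364059 to 89388160). GBP6 is on the plus strand and the others are on the minus strand. GBP2 and GBP7 overlap on the same strand. Because the genes are recent duplicates, reads can fit more than one of them. Of the 31-base words in the annotated transcripts, the unit on which kallisto assigns reads, 30.1% for GBP7 also occurred in another gene, most of them in GBP2. The shares were 15% for GBP1, 14% for GBP4, 12.5% for GBP3, 10.6% for GBP2, 6.42% for GBP6 and 4.3% for GBP5. By shared words, the assignment of reads to GBP7 is therefore the least certain of the 7, since a highly expressed GBP2 shares 24.4% of its words.

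Start-site sequence was at hand for 5 members, from RefSeq (GRCh38.p14). The stretches from 150 bases before to 30 bases after the start are printed so that members at high and at low levels under IFNγ can be compared. Capitals mark matches to the ISRE core and to the GAS element TTCNNNGAA. The ISRE core was taken as GAAA, any 2 bases and GAAA, which reads as TTTC, any 2 bases and TTTC on the opposite strand. The 2 motifs did not overlap in any window shown. Each stretch is given 5′ to 3′ along its gene, on the strand named in brackets after its place.
GBP1, chr1:89065179-89065358 (minus): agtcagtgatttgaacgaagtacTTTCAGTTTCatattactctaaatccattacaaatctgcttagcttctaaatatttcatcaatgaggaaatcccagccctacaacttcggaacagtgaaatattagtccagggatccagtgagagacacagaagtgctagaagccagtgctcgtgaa
GBP3, chr1:89022837-89023016 (minus): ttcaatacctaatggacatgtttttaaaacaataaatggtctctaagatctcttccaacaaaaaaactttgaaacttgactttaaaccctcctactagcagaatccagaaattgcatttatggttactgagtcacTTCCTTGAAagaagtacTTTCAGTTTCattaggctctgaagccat
GBP4, chr1:89198913-89199092 (minus): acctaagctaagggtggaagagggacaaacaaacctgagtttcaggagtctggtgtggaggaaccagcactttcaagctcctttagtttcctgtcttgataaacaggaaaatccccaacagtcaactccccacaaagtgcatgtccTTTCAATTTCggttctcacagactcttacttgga
GBP6, chr1:89363909-89364088 (plus): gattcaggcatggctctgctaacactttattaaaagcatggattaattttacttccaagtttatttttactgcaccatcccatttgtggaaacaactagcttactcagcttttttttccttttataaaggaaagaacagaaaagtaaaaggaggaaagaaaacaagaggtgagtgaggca
GBP7, chr1:89175974-89176153 (minus): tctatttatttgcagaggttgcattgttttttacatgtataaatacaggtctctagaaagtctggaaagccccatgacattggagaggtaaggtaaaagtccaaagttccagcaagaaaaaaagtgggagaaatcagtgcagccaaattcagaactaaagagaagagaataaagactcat

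Over the whole window of 300 bases, from 250 before to 50 after the start and on both strands, GBP1, GBP3 and GBP4 each held 1 ISRE core. GBP1 and GBP3 carried the same 10 letters, TTTCAGTTTC, from 127 to 118 bases before the start of GBP1 and from base 3 to base 12 after that of GBP3. In GBP4 the match, TTTCAATTTC, ran from 4 bases before the start to base 6 after it. GBP3 alone also held a GAS element, TTCCTTGAA, from 15 to 7 bases before the start, next to its ISRE core. All of these places count from the RefSeq start. The GENCODE spans of GBP1 and GBP3 reach further upstream, to 89065360 and 89022894. Every match named in these genes lies inside those spans, so before or after the start depends on the annotation. Neither motif was found in the windows of GBP6 and GBP7. Among the 35116 windows of all genes, 3.57% held the ISRE core, 7.66% the GAS element and 0.439% both. A match is a description of letters and was not tested as a binding site.

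Without IFNγ, transcripts of the family were scarce. The 7 genes together had 4.74 to 5.80 TPM in siCTRL and 5.78 to 7.10 TPM in siMITF libraries. GBP2 led in both conditions and was the only member above 2 TPM in all 12 libraries. GBP1, GBP3, GBP4 and GBP5 stayed under 2 TPM in every untreated library. These 4 genes entered the test only through the IFNγ conditions, so they had to differ between treated and untreated cells, and the count of changed members is given for completeness and supports nothing. GBP6 and GBP7 did not reach a mean of 2 TPM in any condition and were not tested.

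With IFNγ the 5 tested members were all counted as higher in siCTRL cells, where 2.42% of tested genes were, and all 5 again in siMITF cells, where 2.72% were. Their median log2 difference was 4.56 in siCTRL and 5.50 in siMITF cells, beside medians of -0.07 and -0.10 over all tested genes. Against untreated siCTRL cells, the combination also had all 5 counted as higher, where 5.61% of tested genes were. By size of the rise among the 12773 tested genes, GBP1 ranked 2 with either siRNA, GBP5 ranked 5 in siCTRL and 6 in siMITF cells, and GBP4 ranked 133 and 59. All of the IFNγ libraries lay above all of the untreated libraries for GBP1, GBP2, GBP3, GBP4, GBP5 and GBP7 with either siRNA, which held for 11.7% of tested genes in siCTRL and 12.1% in siMITF cells. With 3 libraries on each side, the smallest p that exact two-sided permutation can reach for one gene is 0.1, so the tests given here rest on the fit across genes.

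**Figure D1:**
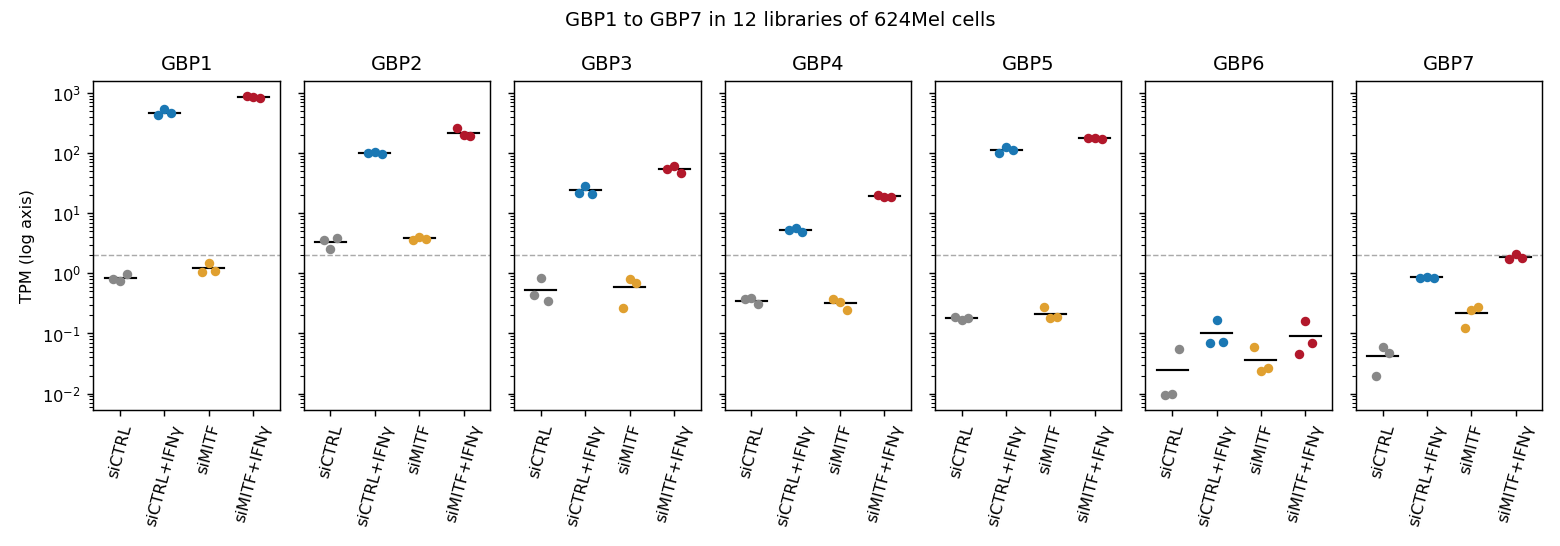
TPM of GBP1 to GBP7 on a log axis, one panel per gene, with a point for each of the 12 libraries, a black bar for the mean of each condition (n = 3) and a dashed line at 2 TPM. Both IFNγ conditions stand above the untreated ones for 6 genes, with siMITF+IFNγ highest for these 6, while GBP6 stays under 0.17 TPM in every library.

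GBP1, the member that first coats cytosolic bacteria by binding their lipopolysaccharide, was the most abundant under IFNγ. It had 0.796, 0.746 and 0.981 TPM in siCTRL libraries and 424, 532 and 456 TPM in siCTRL+IFNγ libraries. In siMITF cells it had 1.04, 1.5 and 1.09 TPM without and 890, 870 and 828 TPM with IFNγ. The 4 conditions did not overlap, although the 2 untreated ones lay close together. The log2 difference with IFNγ was 8.0 in siCTRL (SE 0.10, limma adjusted p = 5.6e-14) and 8.61 in siMITF cells (SE 0.10, limma adjusted p = 2.9e-14). As ratios of mean TPM these were 560-fold and 712-fold, with means of 0.841 and 1.21 TPM as denominators. GBP1 held rank 244 of all gene IDs by mean TPM in siCTRL+IFNγ and rank 151 in siMITF+IFNγ, against 13354 and 13026 without IFNγ.

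GBP5, which promotes assembly of the NLRP3 inflammasome and, with GBP2, hinders the protease furin, was nearly silent before treatment. Its levels were 0.189, 0.165 and 0.184 TPM in siCTRL and 0.277, 0.179 and 0.185 TPM in siMITF libraries, which overlapped. With IFNγ they were 102, 124.5 and 114 TPM in siCTRL and 179, 177 and 171 TPM in siMITF cells, all siMITF+IFNγ libraries above all siCTRL+IFNγ libraries. The log2 difference with IFNγ was 6.60 in siCTRL (SE 0.09, limma adjusted p = 5.6e-14) and 7.19 in siMITF cells (SE 0.09, limma adjusted p = 2.9e-14). The pseudocount of 1 lowers these values for a gene at 0.2 TPM, and with a pseudocount of 0.1 they were 8.66 and 9.15.

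GBP2, the other furin-directed member, started from the highest baseline. It had 3.54, 2.55 and 3.87 TPM in siCTRL and 3.63, 4.02 and 3.76 TPM in siMITF libraries. With IFNγ it had 101, 104 and 96.3 TPM in siCTRL cells and 261, 202 and 192 TPM in siMITF cells. The untreated groups overlapped, and the IFNγ groups did not. The ratio of mean TPM was 30.2-fold in siCTRL and 57.4-fold in siMITF cells, with log2 differences of 4.56 (SE 0.13, limma adjusted p = 5.0e-11) and 5.50 (SE 0.13, limma adjusted p = 6.7e-12). Replicate 1 of siMITF+IFNγ stood above the other libraries of its condition.

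GBP3 and GBP4 join GBP1 and GBP2 on the bacterial surface and take part in bringing CASP4 there. GBP3 had 0.437, 0.826 and 0.352 TPM in siCTRL, 21.7, 28.9 and 21.1 TPM in siCTRL+IFNγ, 0.260, 0.793 and 0.702 TPM in siMITF and 55.3, 61.0 and 46.1 TPM in siMITF+IFNγ libraries. Its baseline varied most among the tested members, with a coefficient of variation of 46.9% in siCTRL and 48.7% in siMITF. Its log2 difference with IFNγ was 4.01 in siCTRL (SE 0.17, limma adjusted p = 2.8e-09) and 5.13 in siMITF cells (SE 0.17, limma adjusted p = 1.9e-10).

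GBP4 was the least abundant of the tested members under IFNγ and the one whose response differed most between the siRNAs. It had 0.370, 0.385 and 0.305 TPM in siCTRL and 5.25, 5.74 and 4.85 TPM in siCTRL+IFNγ libraries. In siMITF cells it had 0.381, 0.335 and 0.249 TPM without and 20.0, 18.45 and 18.47 TPM with IFNγ. The untreated groups overlapped, while the lowest siMITF+IFNγ library was above 3 times the highest siCTRL+IFNγ library. The ratio of mean TPM with IFNγ was 14.9-fold in siCTRL and 59.0-fold in siMITF cells. The log2 differences were 2.21 (SE 0.10, limma adjusted p = 2.7e-09) and 3.92 (SE 0.10, limma adjusted p = 8.7e-12).

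GBP7 and GBP6 are the least studied members. GBP7 had 0.0198, 0.0602 and 0.0470 TPM in siCTRL, 0.829, 0.883 and 0.851 TPM in siCTRL+IFNγ, 0.123, 0.250 and 0.280 TPM in siMITF and 1.71, 2.12 and 1.80 TPM in siMITF+IFNγ libraries. The 4 groups did not overlap, all at levels where shared words with GBP2 and unknown depth limit the reading. When no filter on low values was applied, its log2 difference with IFNγ was 0.83 in siCTRL (limma adjusted p = 3.4e-05) and 1.24 in siMITF cells (limma adjusted p = 1.2e-06), and it was counted as changed in the second comparison. On the same terms siMITF differed from siCTRL by 0.22 without (limma adjusted p = 0.0417) and 0.63 with IFNγ (limma adjusted p = 1.2e-04). GBP6 ran from 0.00935 to 0.0543 TPM in siCTRL, 0.0707 to 0.169 TPM in siCTRL+IFNγ, 0.0235 to 0.0599 TPM in siMITF and 0.0458 to 0.161 TPM in siMITF+IFNγ libraries. Without the filter its log2 difference with IFNγ was 0.11 in siCTRL (limma adjusted p = 0.286) and 0.07 in siMITF cells (limma adjusted p = 0.425).

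The order of the members changed with treatment. In siCTRL libraries the order by mean TPM was GBP2, GBP1, GBP3, GBP4, GBP5, GBP7 and GBP6, and GBP1 with GBP3, GBP3 with GBP4 and GBP7 with GBP6 had overlapping libraries. In siMITF libraries GBP7 (0.218 TPM) and GBP5 (0.214 TPM) were level, and GBP3 with GBP4 and GBP4 with GBP7 also overlapped. With IFNγ the order was GBP1, GBP5, GBP2, GBP3, GBP4, GBP7 and GBP6 in siCTRL cells, with overlap only of GBP5 and GBP2. In siMITF+IFNγ libraries GBP2 stood above GBP5 and no neighbours overlapped.

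The summed level of the family rose to 654 to 796 TPM in siCTRL+IFNγ and 1257 to 1407 TPM in siMITF+IFNγ libraries. GBP2 made up 62.2% ± 7.31 (SD, n = 3) of the sum in siCTRL and 59.7% ± 3.13 in siMITF libraries. With IFNγ its share was 14.1% ± 1.18 and 16.3% ± 1.95. GBP1 took 15.8% ± 1.04 and 18.8% ± 1.99 without and 65.8% ± 1.01 and 64.8% ± 1.41 with IFNγ. Between the 2 IFNγ conditions the share of GBP4 was 0.741% ± 0.0548 in siCTRL and 1.43% ± 0.0416 in siMITF cells, and that of GBP5 was 15.9% ± 0.495 and 13.2% ± 0.452, in both cases without overlap of the libraries. The share of GBP3 ran from 3.04% to 3.63% and from 3.67% to 4.58%, also without overlap. The shares of GBP1 and of GBP2 overlapped between these 2 conditions.

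**Figure D2:**
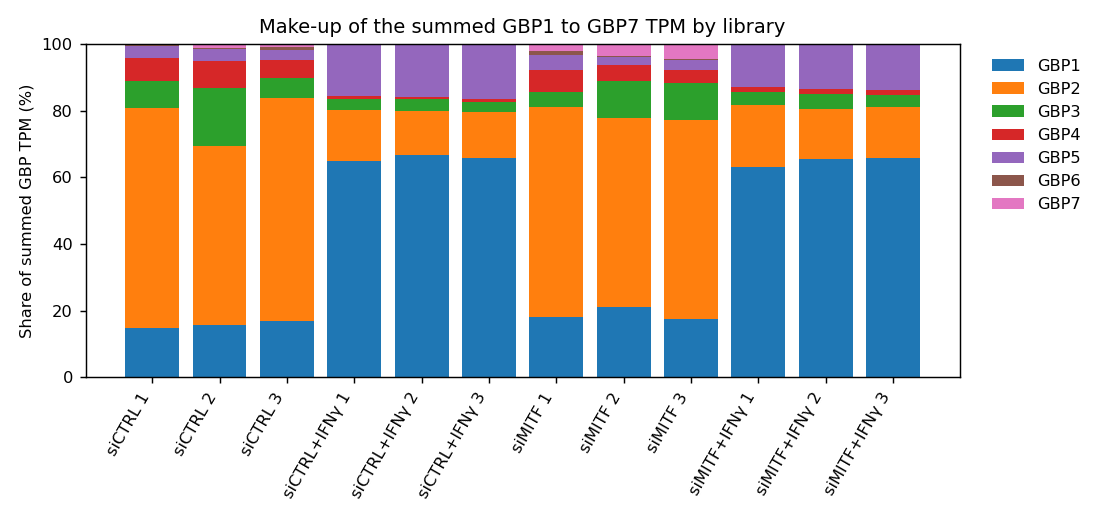
Share of each member in the summed TPM of GBP1 to GBP7, in percent, as 1 stacked bar per library (12 libraries). GBP2 fills over 53% of every bar without IFNγ and GBP1 over 63% of every bar with it.

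Without IFNγ, GBP2 alone could be counted, since GBP1, GBP3, GBP4 and GBP5 had means under 2 TPM in both siCTRL and siMITF cells. GBP2 was not counted as higher in siMITF than in siCTRL cells, where 3.22% of tested genes were, or as lower, where 2.88% were. For the others the outcome of the count was fixed beforehand and supports nothing. None of the 5 tested members had a limma adjusted p under 0.05, against 21% of tested genes that were higher with one. Before adjustment, the p from limma was under 0.05 for GBP1 alone. The log2 difference of siMITF from siCTRL was 0.26 for GBP1 (SE 0.10, limma adjusted p = 0.0697), 0.16 for GBP2, 0.04 for GBP3, -0.04 for GBP4 and 0.04 for GBP5. The pseudocount of 1 shrinks such differences at low levels. As ratios of mean TPM, siMITF was 1.44 times siCTRL for GBP1, 1.15 times for GBP2, 1.09 times for GBP3, 0.91 times for GBP4 and 1.19 times for GBP5. GBP1 came nearest, with all siMITF libraries above all siCTRL libraries, as for 33% of tested genes. Its limma adjusted p was under 0.05 in 5 of 25 alternatives, 0.0306 with replicate numbers as a block among them, and ran from 0.0184 with a pseudocount of 0.1 to 0.838 with quantile normalization.

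Under IFNγ all 5 tested members were higher in siMITF than in siCTRL cells with a limma adjusted p under 0.05, as were 18.4% of tested genes. Each of the 5 was above 2 TPM in both conditions. Of these, GBP2, GBP3 and GBP4 were counted as changed, where 3.12% of tested genes were counted as higher. GBP4 rose by 1.67 on the log2 scale (SE 0.10, limma adjusted p = 6.1e-08), GBP3 by 1.15 (SE 0.17, limma adjusted p = 2.6e-04) and GBP2 by 1.10 (SE 0.13, limma adjusted p = 3.7e-05). The differences of GBP1, 0.88 (limma adjusted p = 3.2e-05), and of GBP5, 0.63 (limma adjusted p = 1.3e-04), stayed under the limit of 1. As ratios of mean TPM, siMITF+IFNγ was 3.6 times siCTRL+IFNγ for GBP4, 2.27 times for GBP3, 2.17 times for GBP2, 1.83 times for GBP1 and 1.55 times for GBP5. The libraries of these 5 genes and of GBP7 did not overlap, with siMITF+IFNγ above, as for 21.3% of tested genes. The value of GBP2 was 0.96, under the limit, without replicate 1 of siMITF+IFNγ.

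**Figure D3:**
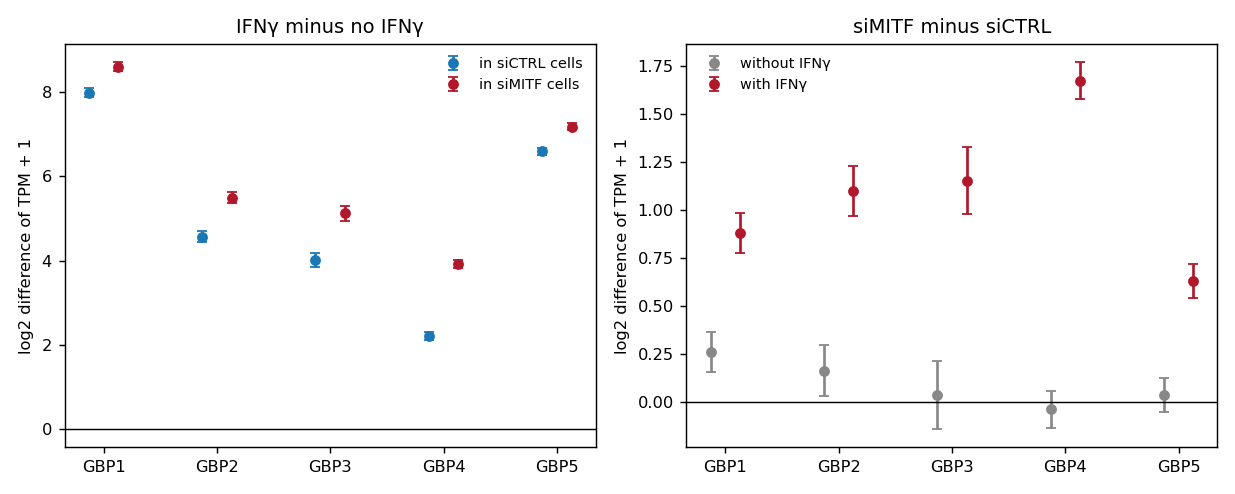
Log2 differences of TPM plus 1 with their SE from limma for the 5 tested members. The left panel shows IFNγ minus no IFNγ in siCTRL and in siMITF cells, and the right panel siMITF minus siCTRL without and with IFNγ. With IFNγ the siMITF differences run from 0.63 (GBP5) to 1.67 (GBP4), and without it from -0.04 (GBP4) to 0.26 (GBP1). The added 1 TPM shrinks the differences without IFNγ more, since levels there are low.

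The interaction asks whether the IFNγ effect differed between siMITF and siCTRL cells. It was above 0 for the 5 tested members, as for 42.3% of tested genes. GBP4 had an interaction of 1.71 (SE 0.14, limma adjusted p = 7.5e-05) and was the only member past both limits, an adjusted p under 0.05 and a size over 1, which 0.391% of tested genes passed with a positive value. An adjusted p under 0.05 with a positive value, whatever the size, was found for 0.705% of tested genes and 3 members. GBP2 had an interaction of 0.93 (SE 0.19, limma adjusted p = 0.0372) and GBP5 one of 0.59 (SE 0.12, limma adjusted p = 0.0487). The interactions of GBP3, 1.11 (SE 0.25, limma adjusted p = 0.0655), and of GBP1, 0.62 (SE 0.15, limma adjusted p = 0.0915), did not pass. Ratios of mean TPM, which carry no pseudocount, were also compared. The IFNγ ratio in siMITF was 3.95 times that in siCTRL cells for GBP4, 2.08 times for GBP3 and 1.90 times for GBP2. For GBP5 it was 1.3 times and for GBP1 1.27 times. When replicate numbers entered the fit as a block, the limma adjusted p was 0.00419 for GBP3 and 0.0250 for GBP1, so that the 5 members then all had one under 0.05 and GBP3 joined GBP4 past both limits.

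The call for GBP4 held in all 24 alternative fits, with limma adjusted p-values from 2.3e-05 to 0.00265, while GBP2 was under 0.05 in 11 of 24, GBP5 in 10 and GBP1 and GBP3 in 5 each. The call for GBP2 was lost without any one of 9 libraries, with a limma adjusted p of up to 0.118, and that of GBP5 was lost without any one of 11 libraries, with one of up to 0.145. Leaving out siCTRL+IFNγ replicate 2 brought GBP1 to a limma adjusted p of 0.0381 and GBP3 to 0.0385. That library had the highest level of its condition for all 7 members and a mitochondrial share of 8.45%, against 16.9% and 15.7% in the other two. After TPM were rescaled without mitochondrial genes, the limma adjusted p was 0.0311 for GBP1 and 0.0320 for GBP3.

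**Figure D4:**
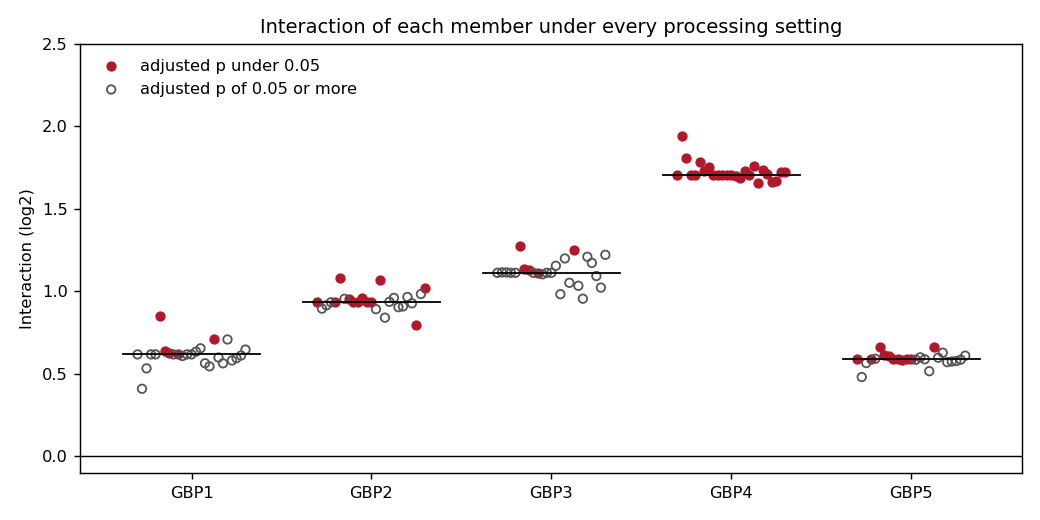
Interaction on the log2 scale (IFNγ effect in siMITF minus that in siCTRL cells) of the 5 tested members in the reported fit (black bar, with its own point) and in 24 alternatives, filled where the limma adjusted p was under 0.05. Some alternatives reuse the p-values of the reported fit. The points of GBP4 lie between 1.66 and 1.94 and are all filled, while those of the other 4 members are a mix of filled and open points above 0.

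Measured in TPM, the combination exceeded the sum of both single effects for 6 of the 7 members, the 5 tested ones among them, as for 42.1% of tested genes. For the 5 tested members the untreated levels were low, so the sum is close to siCTRL+IFNγ alone. Their comparison with the sum therefore nearly repeats that of siMITF+IFNγ with siCTRL+IFNγ and is no separate support. GBP1 reached 863 ± 31.7 TPM (SD, n = 3) in the combination, against a sum of 471 TPM. The combination was 3.62 times the sum for GBP4, 2.26 times for GBP3, 2.16 times for GBP2, 1.83 times for GBP1, 1.82 times for GBP7 and 1.55 times for GBP5. GBP6 had 0.0922 TPM in the combination and a sum of 0.116 TPM. For GBP7 the sign depended on the scale: its ratio with IFNγ was 20.2-fold in siCTRL and 8.61-fold in siMITF cells, because its baseline was higher in siMITF cells, yet its log2 interaction with a pseudocount of 1 and no filter was 0.41 (limma adjusted p = 0.142).

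Genes upstream of the family were described from a list of IFNγ signalling genes. STAT2, IRF1 and IRF9 were counted as higher with IFNγ in both siCTRL cells, where 2.42% of tested genes were, and siMITF cells, where 2.72% were. IRF1, the factor that binds ISRE elements in this response, had 2.49 ± 0.292 TPM in siCTRL, 88.0 ± 12.8 TPM in siCTRL+IFNγ, 3.08 ± 0.247 TPM in siMITF and 155 ± 19.1 TPM in siMITF+IFNγ libraries. Under IFNγ it was higher in siMITF than in siCTRL cells by 0.82 on the log2 scale (limma adjusted p = 2.3e-04), between the values of GBP5 and GBP1. The interaction of IRF1 was 0.59 (limma adjusted p = 0.210). Those of STAT2, 0.0019 (limma adjusted p = 0.991), and of IRF2, 0.14 (limma adjusted p = 0.955), were smaller. IRF9 had an interaction of 0.61 (limma adjusted p = 0.0448), together with a level in siMITF cells without IFNγ of 4.51 ± 0.144 TPM against 7.93 ± 0.827 TPM in siCTRL. Neither receptor chain (IFNGR1, IFNGR2) nor kinase (JAK1, JAK2) had a limma adjusted p under 0.05 in any comparison. Of the 12773 tested genes, 121 had one for the interaction, 1652 for IFNγ in siCTRL and 5688 for the combination against siCTRL. The absence of one in so few genes does not set them apart.

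Of 11 partner, caspase and inflammasome genes 6 were tested. With IFNγ, 3 of them were counted as higher in siCTRL cells (APOL3, RNF213 and CASP4), where 2.42% of tested genes were, and 4 in siMITF cells, with CASP1 added, where 2.72% were. APOL3, an apolipoprotein L that attacks bacteria opened by guanylate-binding proteins, had 0.0530 ± 0.0460 TPM in siCTRL, 10.5 ± 0.964 TPM in siCTRL+IFNγ, 0.0405 ± 0.0372 TPM in siMITF and 22.2 ± 0.510 TPM in siMITF+IFNγ libraries. Its interaction was 1.03 (limma adjusted p = 0.00210), past both limits like that of CASP1, 1.05 (limma adjusted p = 0.00284), as for 0.391% of tested genes. APOL3 entered the test only through the IFNγ conditions, so its calls with IFNγ support nothing. CASP1 entered only through siMITF+IFNγ, so neither its call nor its interaction supports anything. CASP1 was listed at 0 in the 3 siCTRL libraries and had 1.58 ± 0.219 TPM with IFNγ in siCTRL and 4.41 ± 0.236 TPM in siMITF cells. CASP4, the caspase recruited to coated bacteria, had 24.3 ± 0.656 TPM in siCTRL+IFNγ and 37.9 ± 3.8 TPM in siMITF+IFNγ libraries, against 9.60 ± 0.0798 and 13.8 ± 0.952 TPM without IFNγ. The interactions of CASP4, 0.14 (limma adjusted p = 0.930), and of RNF213, -0.32 (limma adjusted p = 0.576), did not pass. NLRP3, the sensor linked to GBP5, had at most 0.147 TPM in any library, and AIM2, GSDMD, PYCARD and CASP5 were also not tested.

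Of 14 other dynamin superfamily and IRG GTPases 13 were tested, and none was counted as changed in any of the 6 comparisons. Among all tested genes, the share counted ran from 0.478% for the interaction to 8.75% for the combination against siCTRL. None of 13 is near these shares and does not set the list apart. MX1, a GTPase better known from type I interferon responses, had 5.44 ± 0.657 TPM in siCTRL and 4.90 ± 0.613 TPM in siCTRL+IFNγ libraries. MX2 had a log2 difference with IFNγ of 0.67 in siMITF cells (limma adjusted p = 0.0392) and 0.05 in siCTRL cells, an interaction that did not pass (limma adjusted p = 0.673). ATL1 and ATL2, atlastins of the endoplasmic reticulum with a GTPase domain like that of the guanylate-binding proteins, were higher in siMITF cells without IFNγ, by 0.83 (limma adjusted p = 3.3e-04) and 0.59 (limma adjusted p = 0.00366) on the log2 scale, while ATL3 was lower (-0.44, limma adjusted p = 0.0154). Of the 6 prenylation genes, which attach and trim the lipid anchors of GBP1, GBP2 and GBP5, none had a limma adjusted p under 0.05 with IFNγ. Of the 12773 tested genes, 1652 had one in siCTRL and 2574 in siMITF cells. FNTB, the beta subunit of farnesyltransferase, was lower in siMITF cells by a log2 difference of -0.34 without (limma adjusted p = 0.0245) and -0.35 with IFNγ (limma adjusted p = 0.0222). PGGT1B, a subunit of the enzyme for the other anchor, was lower without IFNγ (-0.37, limma adjusted p = 0.0436). ZMPSTE24, a CaaX protease, was higher in siMITF cells with IFNγ (0.31, limma adjusted p = 0.0140).

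Of 8 listed neighbouring protein-coding genes all were tested, and none of these was counted as changed in any comparison. Among all tested genes 0.478% (interaction) to 8.75% (combination against siCTRL) were, so none of 8 is near the share over all genes. KYAT3 and RBMXL1, which overlap each other next to GBP3, were the 2 with a limma adjusted p under 0.05 for IFNγ. Such a value was reached by 1652 of 12773 tested genes in siCTRL and by 2574 in siMITF cells. KYAT3 differed by 0.40 in siCTRL (limma adjusted p = 0.00328) and 0.57 in siMITF cells (limma adjusted p = 1.7e-04) on the log2 scale, and RBMXL1 by 0.55 (limma adjusted p = 0.0113) and 0.74 (limma adjusted p = 0.00118). On the other side, beyond GBP6, the pseudogene GBP1P1 was tested too and was not in the list. It was counted as higher with IFNγ, by 3.20 in siCTRL (limma adjusted p = 1.4e-10) and 4.47 in siMITF cells (limma adjusted p = 4.9e-12). GBP1P1 entered the test only through the IFNγ conditions, so these calls support nothing. LRRC8B, the first listed gene past it, had -0.08 and 0.09.

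**Figure D5:**
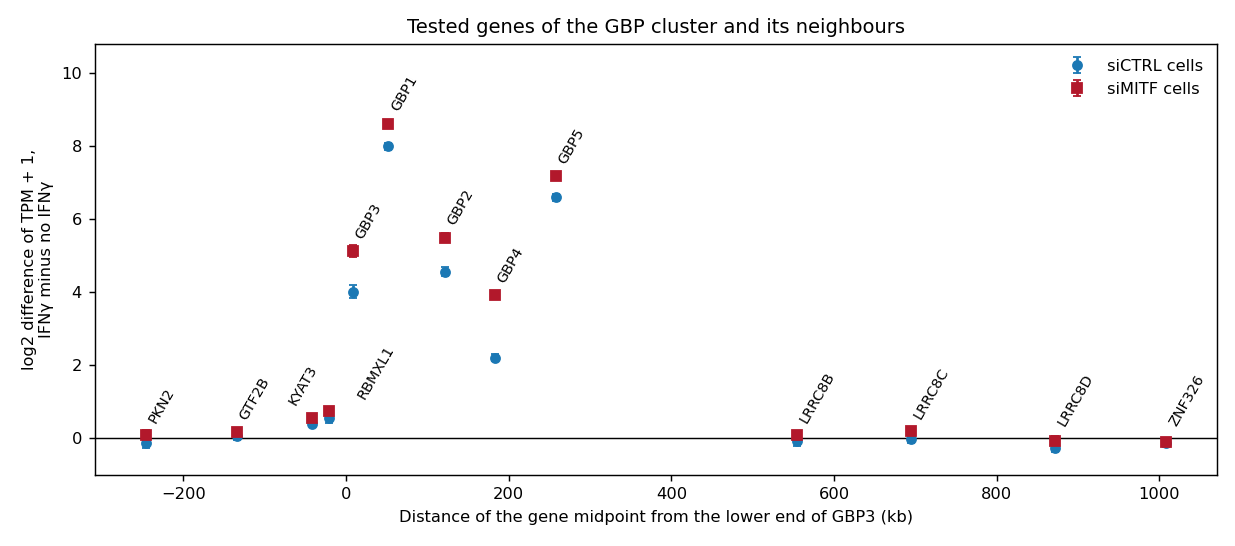
Log2 difference of TPM plus 1 with IFNγ (SE from limma) in siCTRL cells (blue circles) and siMITF cells (red squares) for the 5 tested members and their 8 listed neighbours, placed by the distance of each gene's midpoint from the lower end of GBP3 in kb. The members lie between 2.21 and 8.61, and the neighbours between -0.26 and 0.74.

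The genes most like the members over the 12 libraries were sought by Pearson correlation on log2 of TPM plus 1, among tested genes outside the family. All of these correlations share the large split between libraries with and without IFNγ and are descriptions. For GBP1 they were APOL6 (r = 0.9996), IDO1 (r = 0.9994) and IFI27 (r = 0.9991), and for GBP5 APOL6 (r = 0.9999), IFI27 and PSMB8. GBP2 was nearest to CXCL9 (r = 0.9980), APOL3 (r = 0.9977) and CXCL10 (r = 0.9974). GBP4 was nearest to CASP1 (r = 0.9987), an Ensembl gene without a symbol and CHRD (r = 0.9944), which had 5.67 TPM in siCTRL+IFNγ and 17.7 TPM in siMITF+IFNγ libraries. GBP3 was nearest to a gene without a symbol, CXCL11 (r = 0.9974) and C4B (r = 0.9973).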

How the data were processed

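RNA from 624Mel cells gave 12 libraries, 3 per condition. Trimmomatic 0.39 and kallisto, with human transcripts of Ensembl GRCh38, were used by the authors, who deposited TPM per Ensembl gene ID and library. The step from transcripts to genes and the Ensembl release are not given in the sources used here. The submitters' processing notes also name DESeq2 1.26.0, whose output was not used here. Depth per library is unknown. Symbols, positions and transcripts came from GENCODE version 44, and start-site sequences from RefSeq, which gave no entry for GBP2 and GBP5.

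The values log2(TPM + 1) were fitted in limma 3.58.1 (R 4.3.3) for 12773 gene IDs, those whose mean reached 2 TPM in some condition. The fit had 1 coefficient per condition and a moderated variance with an intensity trend. Tests were two-sided, with Benjamini-Hochberg adjustment over these genes, and 6 comparisons came from the one fit. The named genes were the 7 members, the genes of 5 lists (IFNγ signalling, related GTPases, prenylation, partners and neighbours), per comparison the up to 4 changed with the largest difference and up to 3 unchanged with the highest level, the 3 most correlated genes per tested member, and MITF. Any other list gene named was chosen after its values were seen. One gene of the signalling list is not reported here. Members and lists were chosen with earlier results of these data known. The fit was tested on simulated data. Python 3.11.15 made the tables and figures.

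Libraries with the same replicate number deviated together. After condition means were subtracted, the 18 pairs with one number had correlations across genes of 0.1022 to 0.626 (median 0.280), each over 0.1, whereas the median was -0.20 where numbers differed. The numbers were therefore taken to pair the libraries, from the data and not from a label, and a blocked fit on that number was an alternative. No 2 libraries had identical values. The study states at least 3 independent biological replicates for all experiments, but the labels do not say that these libraries came from separate cultures, so p-values measure the spread between libraries, which may be technical. Other alternatives were pseudocounts of 0.1 and 0.5, no filter, a mean of 5 TPM over all libraries, quantile normalization, centring on the library median, TPM rescaled without mitochondrial genes, no trend, only the conditions compared, an adjusted p limit of 0.01, differences from mean TPM, sums by symbol, departures in TPM and each library left out.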

Additional observations from a re-analysis of the deposited data

Results flagged for a closer look

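The IFNγ effect differed between siMITF and siCTRL cells by the interaction test for 3 members. The interaction was 1.71 on the log2 scale for GBP4 (limma adjusted p = 7.5e-05), with all 3 siMITF+IFNγ libraries above all siCTRL+IFNγ libraries. It was 0.93 for GBP2 (limma adjusted p = 0.0372, from 0.0126 to 0.118 over the alternatives) and 0.59 for GBP5 (limma adjusted p = 0.0487, from 0.00158 to 0.514). Groups of 3 libraries are too small to look for a single library far from its group.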

How the results depend on the processing

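The counts of changed members kept within 1.5 times their value in every alternative for IFNγ in siCTRL, IFNγ in siMITF, the combination against siCTRL, and siMITF without or with IFNγ. The count for the interaction, 1 member (GBP4), was 3 with quantile normalization (GBP2, GBP3 and GBP4), and 2 (GBP3 and GBP4) with centring on the library median, with TPM rescaled without mitochondrial genes and with the replicate block. It ran from 1 to 2 when a library was left out, and was 2 without siCTRL replicate 2, siCTRL+IFNγ replicate 2 or siMITF+IFNγ replicate 3. Under the replicate block no other call changed beside those given in the report for GBP3 and GBP1. Over the 30 differences of single members, 733 of 750 alternatives kept the direction and the call or size, 8 added a call, all of them interactions, and 1 lost one (GBP2, siMITF with IFNγ). Another, the departure of GBP1 in TPM, was larger at 0.87. Many of the 750 had little room to change, so this total overstates stability. Leaving out a library of a condition outside the comparison keeps the log2 difference, and some settings reuse the p-values of the reported fit. GBP1, GBP3, GBP4 and GBP5 could not be counted for siMITF without IFNγ wherever the limit of 2 TPM was kept. The 7 turns of direction were all for siMITF without IFNγ and within 0.12 of 0: GBP3 was -0.12 and GBP5 -0.042 with quantile normalization, GBP3 ran from -0.058 to 0.20 and GBP4 from -0.068 to 0.0053 without 1 library. No alternative moved the median of all tested genes by over 0.0922 on the log2 scale. With a pseudocount of 0.1 the limma adjusted p of the interaction was 0.707 for GBP1, 0.611 for GBP3 and 0.514 for GBP5. The cause was not tested. Unknown depth limits what can be said of GBP6 and GBP7 and of baselines under 1 TPM.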

Other observations

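GBP1P1 (ENSG00000225492, chromosome 1 from 89410319 to 89426243), a transcribed pseudogene beyond GBP6, followed the pattern of the family. It had 0.0257, 0.0314 and 0.0263 TPM in siCTRL, 8.16, 9.40 and 7.91 TPM in siCTRL+IFNγ, 0.0861, 0.0721 and 0.0261 TPM in siMITF and 22.6, 24.8 and 20.5 TPM in siMITF+IFNγ libraries. Its interaction was 1.27 (SE 0.14, limma adjusted p = 7.8e-04), against 0.62 for GBP1. In its annotated transcript 37.1% of the 31-base words also occurred in GBP1, so that some of its level may be reads of GBP1, which was not tested. It was chosen after its values were seen.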
